A study of Mus musculus with 16 samples.

Results

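The mouse mitochondrial genome encodes 37 annotated genes, and 31 of them had at least 1 row in the long-read transcript counts described here. They were chosen by name alone, as all genes whose symbol starts with mt-, out of 24960 annotated genes listed. Among them were all 13 protein-coding genes, both ribosomal RNA genes (mt-Rnr1 and mt-Rnr2) and 16 of 22 transfer RNA genes. The tRNA genes mt-Tv, mt-Tl1, mt-Ta, mt-Tn, mt-Td and mt-Tg had no row. Together the members held 96949 of 11188350 reads.

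PacBio Iso-seq, in which a cDNA molecule is read from end to end, was performed on 2 brain regions, cortex and striatum, of male mice aged 3 months. R6/2 mice (B6CBA-Tg(HDexon1)62Gpb/3J) carry a transgene of exon 1 of human mutant HTT and serve as a model of Huntington's disease, and non-transgenic (NT) mice were the controls. There were 4 samples per genotype and region, 16 in all, and nothing in the labels says whether same-numbered cortical and striatal samples came from 1 mouse. Both regions were dissected whole, so that a level joins neurons, glia and vessels, and fewer cells of a type and less RNA per cell cannot be told apart. For NT 1, NT 2, R6/2 2 and R6/2 3 of the striatum there were 2 count files each, which were summed, and the other 12 samples had 1. The labels speak of a pair of replicates for those 4 samples without saying what was repeated. Cortical samples had 252885 to 808814 reads and striatal samples 317050 to 1496196. The region labels were checked against marker lists. The summed level of 7 markers of striatal projection neurons was 300.5 to 386 reads per 1000000 reads (RPM) in NT cortex and 6624 to 11646 RPM in NT striatum, and no marker was at 0 in either. Mean transcript length per read was 2125 to 2197 bases in 2-file striatal samples, 1589 to 1840 in 1-file striatal samples and 1821 to 2068 in the cortex.

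Mitochondrial genes are transcribed from both strands of a circular genome as long precursors, which are cut into rRNAs, mRNAs and tRNAs. The tRNA sequences lie between the others and mark most of the cuts. Of the 37 genes, 28 lie on 1 strand, called plus in the mouse reference, and 9 on the other. Most mitochondrial mRNAs carry a short poly(A) tail, and in some of them the tail supplies the last bases of the stop codon. The 13 proteins are core subunits of respiratory chain complexes I, III and IV and of ATP synthase (complex V), whose other subunits come from the nucleus. Energy metabolism of the striatum has been studied for many years in Huntington's disease, and the question here is how much of each mitochondrial RNA the long reads held in each region and genotype.

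A read had to carry a poly(A) tail to be counted, so the gene ends are shown first. In 10 of 13 protein-coding genes the annotated span ends with a full stop codon, and in mt-Co3, mt-Nd4 and mt-Cytb it ends with a lone T that the tail must extend to TAA. The last 24 bases of these 3 genes follow, with mt-Co1, the mRNA with the most reads, for comparison. Capitals mark the stop codon or the part of it that the genome encodes (from the GENCODE M21 transcripts, GRCm38, plus strand).
mt-Co3, chrM:9367-9390: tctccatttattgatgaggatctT
mt-Nd4, chrM:11521-11544: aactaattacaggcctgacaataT
mt-Cytb, chrM:15265-15288: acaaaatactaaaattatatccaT
mt-Co1, chrM:6849-6872: ccaacctatgtaaaagtaaaaTAA
The gene mt-Nd6, the only protein-coding gene on the minus strand, meets mt-Nd5 tail to tail, and their spans share the bases from 13552 to 13565. Each end is given 5′ to 3′ on its own strand, again with the stop codon in capitals.
mt-Nd5, chrM:13542-13565, plus strand: ttatactcaattaatctcgagTAA
mt-Nd6, chrM:13552-13575, minus strand: attatcgagattactcgagatTAA
Overlaps also occur on the plus strand, where mt-Atp8 and mt-Atp6 share 43 bases, and mt-Nd4l and mt-Nd4 share 7. The shared bases are in capitals, with 12 bases on each side.
mt-Atp8 and mt-Atp6, chrM:7915-7981: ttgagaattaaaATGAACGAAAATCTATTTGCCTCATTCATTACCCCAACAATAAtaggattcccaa
mt-Nd4l and mt-Nd4, chrM:10155-10185: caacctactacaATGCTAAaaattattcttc
Each of these pairs is known to be made as 1 mRNA. A read of such an mRNA was counted for 1 of its genes, so the split between mt-Atp8 and mt-Atp6, and between mt-Nd4l and mt-Nd4, is uncertain.

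The rRNAs made up 71.1% of mitochondrial reads, the mRNAs 28.5% and the tRNAs 0.425%. The RNA of the large ribosomal subunit, mt-Rnr2 (ENSMUSG00000064339, chrM:1094-2675), had 60423 reads, and that of the small subunit, mt-Rnr1 (ENSMUSG00000064337, chrM:70-1024), had 8517. Per kilobase of gene these are 38194 and 8918 reads. The ratio of the 2 rRNAs is one of counted reads and not of ribosomes. Among mRNAs, mt-Co1 (ENSMUSG00000064351, chrM:5328-6872), the catalytic subunit of complex IV, led with 8880 reads, or 5748 per kilobase. The complex I subunit mt-Nd2 followed with 4164 reads per kilobase. Next were mt-Co3 with 3029 and mt-Atp6 with 2905, then mt-Nd4 with 2176 and mt-Co2 with 2095. Lower still were mt-Cytb, the mitochondrial subunit of complex III, with 1786 reads per kilobase, mt-Nd1 with 1413 and mt-Nd3 with 1109. The longest mRNA, mt-Nd5, had 864 reads per kilobase. The second genes of the overlapping pairs outnumbered the first, with 417 reads per kilobase for mt-Atp8 and 411 for mt-Nd4l. The lowest was mt-Nd6, with 88.6 reads per kilobase and 46 reads in all. Only reads with a poly(A) tail were counted, so this order is one of counted reads and not of RNA levels. Summed by complex, subunits of complex IV held 46.0% of mitochondrial mRNA reads (3 genes), complex I 39.1% (7 genes), complex V 7.48% (2 genes) and complex III 7.40% (1 gene).

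The tRNA genes with at least 10 reads were mt-Tm (127 reads), mt-Tt (94), mt-Th (45), mt-Te (43), mt-Ti (40), mt-Tp (20), mt-Tw (14) and mt-Ts1 (10), the tRNAs for methionine, threonine, histidine, glutamate, isoleucine, proline, tryptophan and one of the serine tRNAs. The other 8 listed tRNA genes had 1 to 7 reads each and are not described singly. With them, 23 of the 31 members were described.

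TALON, the program that assigned reads to transcripts, placed 99.9% of mitochondrial reads (96890) in known models. The genomic class, which holds reads taken for artifacts or precursor RNA, had 36 reads over 42 models, the class with at least 1 unannotated splice site (NNC) had 22, and the class that joins annotated sites in an unannotated way (NIC) had 1. Mitochondrial genes have no introns, and these 59 reads were of models with 2 or 3 exons. No such model had more than 2 reads. Among them 36 reads were of mt-Rnr2, the gene with the most reads. Known models held between 99.8% and 100% of mitochondrial reads in each sample, against 58.9% to 72.4% of all reads. The latter include spliced genes and models outside annotated genes, so the 2 shares are not of like genes. A test of the share of each gene's reads in each class (edgeR's diffSpliceDGE, gene-level Simes p, adjusted over all genes tested) could include mt-Rnr2 in the striatum and no member in the cortex. For mt-Rnr2 the classes did not differ detectably between R6/2 and NT striatum (adjusted p = 0.99998, where 0.0629% of 9533 genes passed) or between 2-file and 1-file samples (adjusted p = 0.623, where 19.3% passed). With so few reads outside the known class, these tests could have shown only a large shift.

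The share of all reads that came from mitochondrial genes was low and even in the cortex. It was 0.474%, 0.365%, 0.266% and 0.488% in NT samples 1 to 4, with a mean of 0.398% ± 0.104 (SD, n = 4). In R6/2 samples 1 to 4 it was 0.449%, 0.481%, 0.351% and 0.464%, with a mean of 0.436% ± 0.0583 (SD, n = 4). The genotypes overlapped, and the means differed by 0.0383 percentage points, less than the pooled SD of 0.0842. Without NT 3, the sample with the lowest share and the fewest reads, the difference was -0.00588.

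In the striatum the share split the samples by their number of files. In NT samples it was 0.688% and 0.368% (NT 1 and NT 2, 2 files) and 2.63% and 2.60% (NT 3 and NT 4, 1 file). In R6/2 samples it was 0.767% and 0.599% (R6/2 2 and R6/2 3, 2 files) and 1.22% and 2.61% (R6/2 1 and R6/2 4, 1 file). Every 1-file sample was above every 2-file sample. The mean was 2.27% over the 4 samples with 1 file and 0.606% over the 4 samples with 2 files, with 2 NT and 2 R6/2 samples on each side. Means by genotype, 1.57% ± 1.21 in NT and 1.30% ± 0.914 in R6/2 (SD, n = 4 each), overlapped widely. Within 2-file samples, R6/2 was 0.155 percentage points above NT, and within 1-file samples it was 0.701 below. These are pairs of samples, and no direction held in both. Wilson 95% intervals, which cover counting error alone, were narrow beside these gaps, from 0.246% to 0.287% for the shallowest sample (cortex NT 3) and from 2.60% to 2.67% for striatal NT 3.

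**Figure D1:**
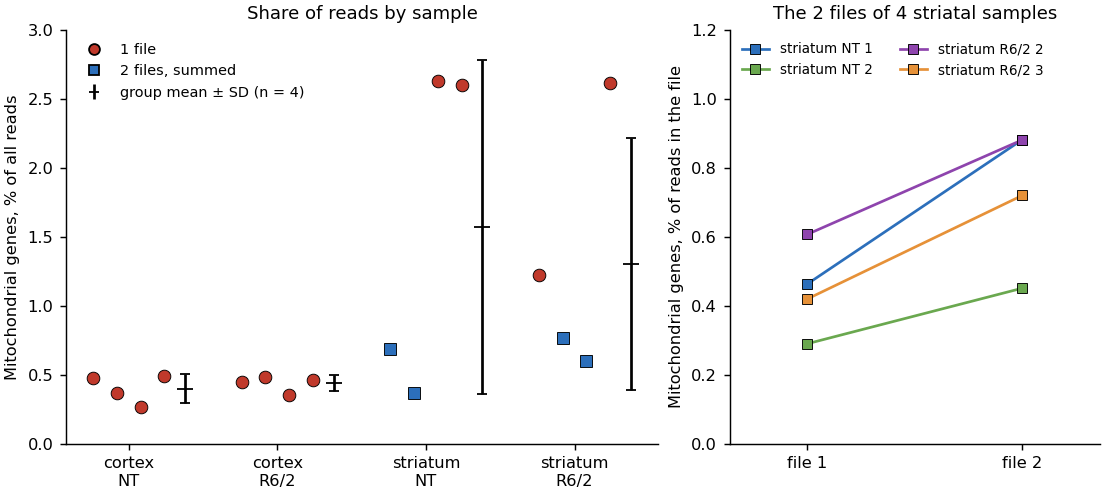
Left, percent of all reads that came from mitochondrial genes, 1 point per sample by region and genotype, with circles for samples of 1 file, squares for samples of 2 summed files, and the group mean ± SD (n = 4) as bars. Right, the same percent in each file of the 4 striatal samples with 2 files. Striatal 1-file samples lie between 1.22% and 2.63% and all other samples at 0.767% or below, and file 2 lies above file 1 in 4 of 4 samples.

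The 2 files of a sample also differed. File 1 and file 2 of striatal NT 1 had 0.463% and 0.882% mitochondrial reads, those of NT 2 0.290% and 0.451%, those of R6/2 2 0.607% and 0.882%, and those of R6/2 3 0.420% and 0.720%. File 2 was 1.45 to 1.91 times file 1 in all 4 samples. No file of these samples reached the lowest share of a 1-file striatal sample, 1.22%. Summed over the 4 samples, mt-Rnr2 had 4253 reads in first and 10009 in second files, and its RPM, on the reads of each file, was higher in the second file in 4 of 4 samples. For mt-Co1 the sums were 1645 and 2129, and 2 of 4 samples were higher in the second file. The other 11 mRNAs tested in the striatum, and mt-Rnr1, were higher in the second file in 4 of 4 samples each, and mt-Tm in 3 of 4. Over all genes, the 2 files of a sample differed beyond sampling noise (chi-square per degree of freedom of 2.34 to 3.04). The share of all genes higher in the second file was not counted, so these counts cannot be called particular to the members.

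The 3 members with the most reads are given for every sample. Levels of mt-Rnr2 were 2892, 2208, 1321 and 3067 in NT cortex and 2720.4, 3043, 2114 and 2875 RPM in R6/2 cortex. In NT striatum mt-Rnr2 had 4379 and 1798 RPM in the 2-file samples (NT 1 and NT 2) and 19392 and 15982 in the 1-file samples (NT 3 and NT 4). In R6/2 striatum it had 4028 and 3235 in the 2-file samples (R6/2 2 and R6/2 3) and 7432 and 16268 in the 1-file samples (R6/2 1 and R6/2 4). The genotypes overlapped in both regions, and the 1-file striatal samples stood above all others.

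For mt-Co1 the spread between samples was smaller. It had 368, 437, 285 and 583 RPM in NT cortex and 432, 379, 402 and 458 in R6/2 cortex. In the 2-file striatal samples it had 717 (NT 1), 680 (NT 2), 1047 (R6/2 2) and 970 (R6/2 3) RPM. In the 1-file striatal samples it had 1320 (NT 3), 1722 (NT 4), 958 (R6/2 1) and 1744 (R6/2 4) RPM. Every striatal sample was above every cortical sample, the genotypes overlapped in each region, and R6/2 1, a 1-file sample, lay among the 2-file samples.

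For mt-Rnr1, RPM were 687, 317, 293 and 416 in NT cortex and 479, 430, 315 and 446 in R6/2 cortex. The 2-file striatal samples had 374 (NT 1), 394 (NT 2), 799 (R6/2 2) and 492 (R6/2 3) RPM. The 1-file striatal samples had 1485 (NT 3), 2422 (NT 4), 1272 (R6/2 1) and 2837 (R6/2 4) RPM. The 2-file striatal samples thus overlapped the cortex, and the 1-file samples were above both.

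**Figure D2:**
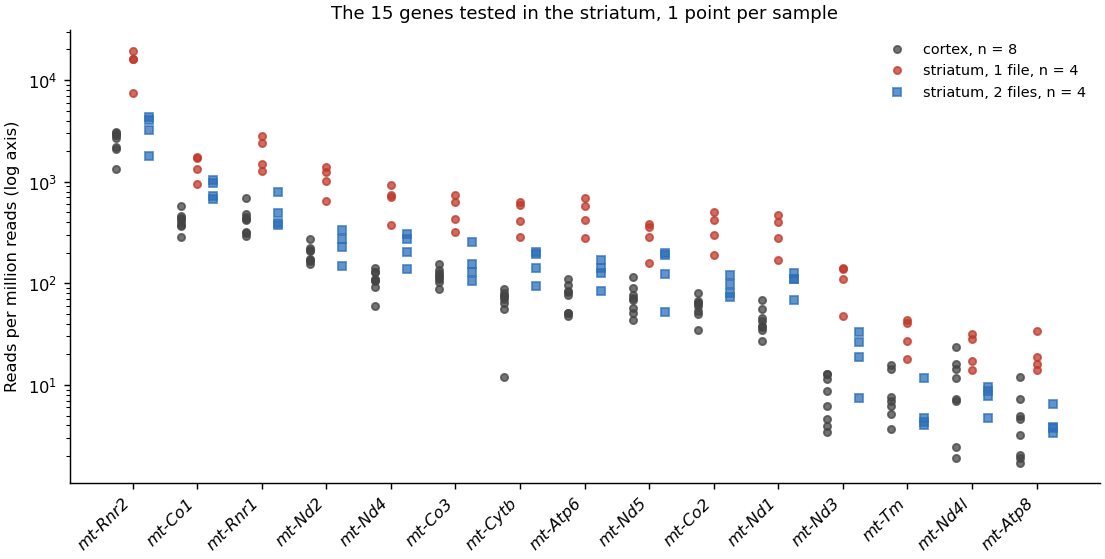
RPM on a log axis for the 15 mitochondrial genes tested in the striatum, ordered by total reads, with 1 point per sample for the 8 cortical samples (grey), the 4 striatal samples with 1 file (red) and the 4 striatal samples with 2 files (blue squares). For 13 of the 15 genes all red points lie above all blue ones, the exceptions being mt-Co1 and mt-Nd5, against 12.2% of all 8718 genes tested. Of the 13, mt-Atp8, mt-Nd4l and mt-Tm passed the filter on low counts only through their 1-file samples, so their separation was in part set by the filter. Genes that did not pass it are not drawn. Among those, mt-Tt, mt-Tw and mt-Te had more reads in 2-file samples, and mt-Th and mt-Ti fewer. The gene mt-Tm had no read in cortex R6/2 3, which is not drawn.

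R6/2 was compared with NT within each region by edgeR's quasi-likelihood test, with p values adjusted by the Benjamini-Hochberg method over all genes that passed a filter on low counts. No mitochondrial gene passed an adjusted p of 0.05 in either region. In the cortex 11 of the 31 members passed the filter, none were called, and 1 had an unadjusted p under 0.05, while 3.51% of 7011 genes were called (1270 at an unadjusted p under 0.05). That member was mt-Atp6, the proton channel subunit of ATP synthase, with 47.8 to 84.2 RPM in NT and 76.0 to 109.8 RPM in R6/2 cortex and a log2 difference of 0.59 ± 0.22 (SE, adjusted p = 0.146). The groups overlapped by 1 NT sample, NT 4. The complex I subunit mt-Nd1 had the lowest log2 difference, -0.45 ± 0.26 (SE, adjusted p = 0.373). The log2 differences of the other 9 lay between these values, with 0.17 ± 0.22 for mt-Rnr2 and -0.02 ± 0.20 for mt-Co1. The median of the 11 was 0.17, against 0.02 over all genes tested.

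In the striatum the fit had a term for the number of files. There 15 members passed the filter, none were called and none had an unadjusted p under 0.05, while 5.68% of 8718 genes were called (1695 at an unadjusted p under 0.05). Their log2 differences ran from -0.29 ± 0.29 (SE, mt-Rnr2, adjusted p = 0.646) to 0.28 ± 0.27 (mt-Rnr1, adjusted p = 0.641). The median was -0.04, against 0.02 over all genes tested. The interval of 1.96 SE on each side of the mt-Rnr2 difference reached from -0.87 to 0.28, and that of mt-Co1 (log2 difference 0.05) from -0.39 to 0.49. By DESeq2, no member was called in either region. In simulated data a change of 2-fold was recovered for 66.3% of changed cortical and 72.8% of changed striatal genes, and one of 4-fold for 98.9% and 100%. The changed genes were drawn from all genes tested, so these values are not those of the members. SEs of the members ran from 0.18 to 0.27 in the cortex and from 0.22 to 0.40 in the striatum. The R6/2 and NT samples overlapped for each of these 15 genes, in either region. Within the 2-file striatal samples both R6/2 samples were above both NT samples in RPM for 6 of the 15 genes, and so they were for 33.2% of the 8718 genes tested. Within the 1-file samples the genotypes overlapped for 15 of 15, while R6/2 was above NT without overlap for 28.8% of all genes tested.

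**Figure D3:**
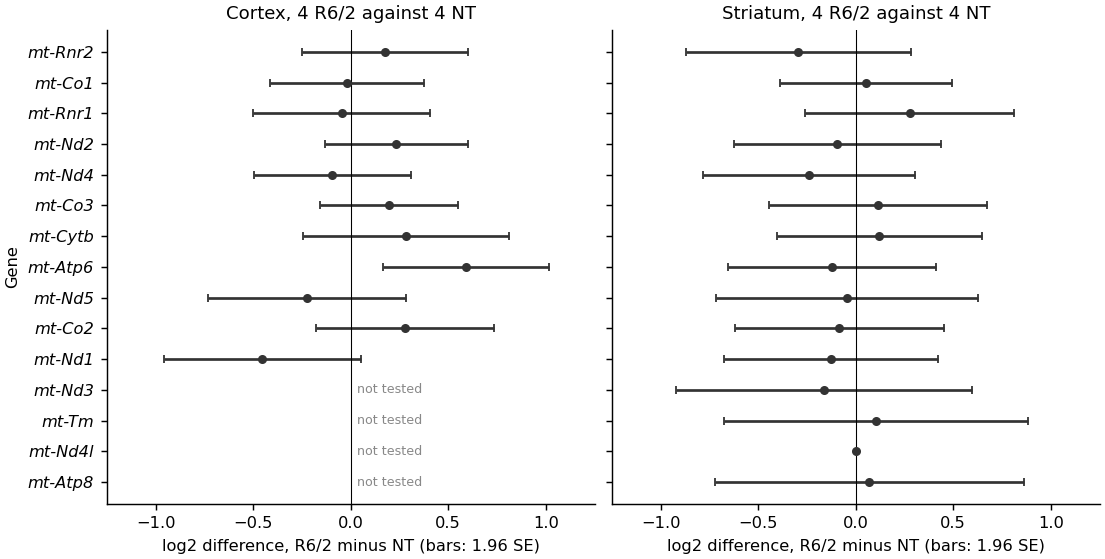
Log2 difference of R6/2 against NT samples (x axis) for each mitochondrial gene (y axis) in cortex (left) and striatum (right), where the number of files was a term of the fit, with bars of 1.96 SE. Cortical points lie between -0.45 and 0.59, striatal points between -0.29 and 0.28. Genes marked as not tested did not pass the filter on low counts, and mt-Nd4l has no bar in the striatum because its difference is so near 0 that no SE could be derived.

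The difference of the R6/2 response between striatum and cortex was tested in 1 fit over the 16 samples. None of 14 members tested was called, and none had an unadjusted p under 0.05. In this fit 0.0474% of 8447 genes were called, and 570 had an unadjusted p under 0.05. By DESeq2 no member was called either. The interaction ran from -0.85 ± 0.80 (SE, mt-Nd3) to 0.59 ± 0.85 (mt-Tm) on the log2 scale. In simulated data 19.6% of 2-fold changes, set in genes drawn from all those tested, were recovered in this test.

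The number of files was tested as the other coefficient of the striatal fit. All 15 members tested were lower in 2-file than in 1-file samples with an adjusted p under 0.05, and 18.3% of 8718 genes were called lower. Of the 15, mt-Atp8, mt-Nd4l and mt-Tm passed the filter on low counts only through their 1-file samples. Their direction was thus in part set by the filter, and they do not add to the count. Members that did not pass it went both ways, with mt-Th and mt-Ti lower and mt-Tt higher in 2-file samples. The log2 difference was smallest for mt-Co1, at -0.98 ± 0.23 (SE, adjusted p = 0.00447), and mt-Nd5, at -1.30 ± 0.35 (SE, adjusted p = 0.0107). Complex I subunits other than mt-Nd5 ranged from -1.69 (mt-Nd4l) to -2.60 ± 0.39 (mt-Nd3, adjusted p = 0.000137), with -2.35 ± 0.28 for mt-Nd2 (adjusted p = 1.99e-05), the smallest adjusted p of the members. The ATP synthase subunits had -2.11 (mt-Atp6) and -2.38 (mt-Atp8), the complex IV subunits mt-Co2 and mt-Co3 -2.13 and -1.96, and mt-Cytb -1.84. For the rRNAs the differences were -2.33 ± 0.31 (mt-Rnr2, adjusted p = 4.49e-05) and -2.22 ± 0.29 (mt-Rnr1, adjusted p = 3.60e-05), and for mt-Tm -2.51 ± 0.40 (SE). The median of the 15 was -2.11, against 0.02 over all genes tested.

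Short transcripts were lower in 2-file samples in general. Nuclear genes whose reads came from models of under 500 bases on average had a median log2 difference of -2.28 (111 genes), those of 500 to 1000 bases -1.33 (598 genes), of 1000 to 1500 bases -0.41 (1155 genes) and of 1500 to 2000 bases -0.03 (1907 genes). Above 2000 bases the medians were 0.21 to 0.32. Mitochondrial genes were set beside the nuclear genes of like length, as a description. The 4 under 500 bases had a median of -2.45, and none was below the lower quartile of nuclear genes, -2.63. All but mt-Nd3 of these passed the filter on low counts only through their 1-file samples, so that median was in part set by the filter. The 5 from 500 to 1000 bases (mt-Atp6, mt-Co2, mt-Co3, mt-Rnr1 and mt-Nd1) had a median of -2.11 and were all below the lower quartile of -1.74. The 3 from 1000 to 1500 bases (mt-Nd2, mt-Cytb and mt-Nd4) had a median of -1.84 against a lower quartile of -0.79. The 3 from 1500 to 2000 bases (mt-Co1, mt-Rnr2 and mt-Nd5) had a median of -1.30 against a lower quartile of -0.46. So for members of 500 bases or more the gap between 2-file and 1-file samples was larger than for 3 in 4 nuclear genes of their length. The lengths of mt-Co1 and mt-Rnr2 were close, at 1545 and 1582 bases, and their log2 differences were -0.98 and -2.33. Lists of other cell types also moved with the number of files. The summed level of 5 oligodendrocyte markers was 8254 to 11416 RPM in 1-file and 15785 to 24399.9 RPM in 2-file samples, and that of 5 astrocyte markers 281 to 495 and 618 to 841 RPM, with no marker at 0. The part of these lists in the mitochondrial levels was not tested.

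**Figure D4:**
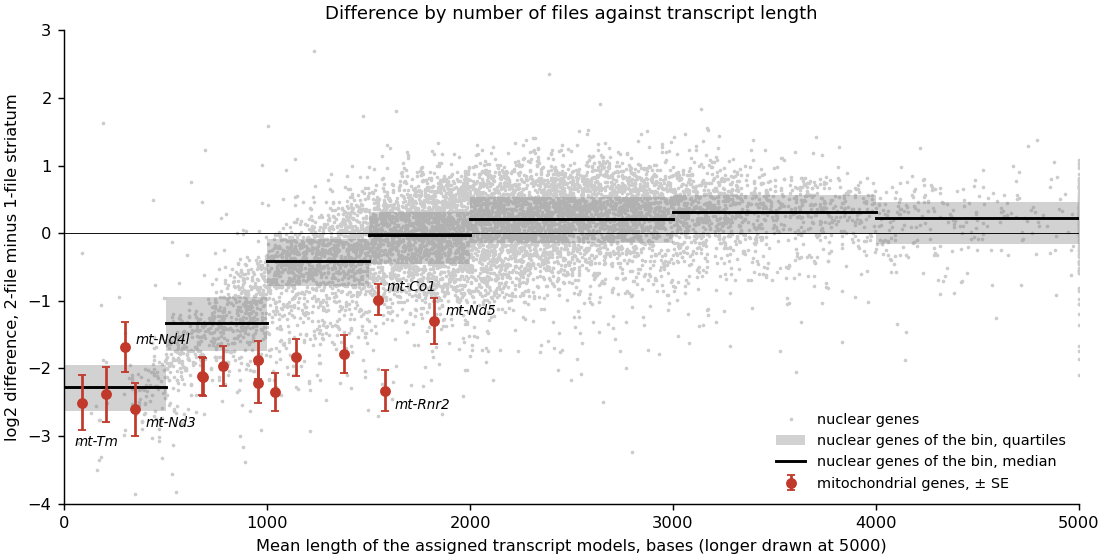
Log2 difference of 2-file against 1-file striatal samples (y axis) against the read-weighted mean length of a gene's transcript models in bases (x axis), for nuclear genes (grey points, with the median as a black line and the quartiles as a grey band in each length bin) and mitochondrial genes (red, ± SE). The nuclear median climbs from -2.28 under 500 bases to 0.21 and above past 2000 bases, and the red points from 500 bases on lie under the grey band.

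Striatum and cortex were compared within each genotype in the fit over all 16 samples with a term for the number of files. Since no cortical sample had 2 files, this sets the 1-file striatum against the cortex. In NT mice 13 of 14 members tested were higher in the striatum, where 17.2% of 8447 genes were called higher, and in R6/2 mice 13 of 14 were, where 14.3% were. The member that was not called was mt-Nd4l in both genotypes, with log2 differences of 1.34 ± 0.59 (SE, adjusted p = 0.0872) and 1.32 ± 0.53 (SE, adjusted p = 0.0715). Of the 14, mt-Nd3, mt-Tm and mt-Nd4l did not pass the filter in the cortex alone and entered this fit through their striatal counts. Among the others, the highest differences were 3.25 ± 0.30 in NT (mt-Atp6, SE, adjusted p = 1.23e-08) and 3.26 ± 0.32 in R6/2 (mt-Nd1, SE, adjusted p = 7.87e-08). Those of mt-Nd3 were 4.34 ± 0.52 in NT (SE, adjusted p = 6.28e-07) and 3.49 ± 0.45 in R6/2 (SE, adjusted p = 3.84e-06). They rest on 1 to 6 reads per NT and 3 to 8 reads per R6/2 cortical sample. For mt-Rnr2 the differences were 2.94 ± 0.30 and 2.48 ± 0.31 (SE), and for mt-Co1 1.92 ± 0.24 and 2.00 ± 0.25 (SE). The medians over the 14 were 2.83 in NT and 2.56 in R6/2, against -0.01 over all genes tested in each.

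When the 4 striatal samples with 2 files were set against the cortex instead, a comparison added after the first results were seen, the gap was smaller. In NT mice 5 of 12 members tested were called higher, where 12.3% of 8977 genes were, and in R6/2 mice 9 of 12, where 12.3% were. Higher in both genotypes were mt-Nd1, mt-Co1, mt-Atp6, mt-Nd4 and mt-Cytb, and in R6/2 also mt-Co2, mt-Co3, mt-Nd3 and mt-Nd5. Of these, mt-Nd3 did not pass the filter in the cortex alone. Log2 differences of mt-Co1 were 0.85 ± 0.22 in NT (SE, adjusted p = 0.00877) and 1.29 ± 0.22 in R6/2 (SE, adjusted p = 0.000234). The rRNAs were not called in either genotype. Log2 differences of mt-Rnr2 were 0.50 ± 0.30 (SE, adjusted p = 0.267) and 0.45 ± 0.30 (SE, adjusted p = 0.303), and those of mt-Rnr1 -0.05 ± 0.29 (SE, adjusted p = 0.935) and 0.64 ± 0.28 (SE, adjusted p = 0.107). For mt-Nd2 the values 0.32 and 0.41 were also not called. As a share of all reads, mitochondrial genes in 2-file striatum exceeded the cortex by 0.130 percentage points in NT, where the groups overlapped, and by 0.247 in R6/2, where they did not. With 1-file striatum these differences were 2.22 and 1.48 percentage points. Region and number of files cannot be fully told apart, and values are therefore given both ways.

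The striatum differed from the cortex in its cell makeup as well. The 5 oligodendrocyte markers summed to 2609.9 to 5767 RPM in the cortex and 8254 to 24399.9 in the striatum, and 5 of 5 were called higher in the striatum in both genotypes. Those of cortical excitatory neurons summed to 134 to 212 RPM in the cortex and 3.15 to 58.8 in the striatum. Microglial markers summed to 146 to 282 RPM in the cortex and 202 to 361 in the striatum. Their part in the regional difference of mitochondrial genes was not tested. The 7 projection neuron markers were at 8824 ± 2082 RPM in NT and 2064 ± 645 in R6/2 striatum (SD, n = 4 each), with 6 of 7 called lower in R6/2, while none of 15 mitochondrial genes was called. Over all 8718 genes tested 421 were called lower.

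The members were also divided by the strand of their gene. This division was looked at after the values were seen. The minus strand carries 9 of the 37 genes, 7 of which were listed: mt-Nd6 and the tRNA genes mt-Te, mt-Tp, mt-Ts1, mt-Tq, mt-Tc and mt-Ty. They held 125 reads, 0.129% of mitochondrial reads, against 96824 for the 24 listed plus-strand genes. Both rRNA genes and every mRNA gene but mt-Nd6 are on the plus strand. Strand and RNA type can therefore not be told apart in these sums. Reads of single genes overlapped between strands, with 7 for the plus-strand tRNA gene mt-Ts2 and 43 for the minus-strand mt-Te. Plus-strand genes summed to 2562 to 26337 RPM over the 16 samples. Minus-strand genes summed to 4.93 to 15.9 RPM in 15 samples and to 94.9 RPM in cortex NT 3. In 1-file striatal samples the minus-strand sum was 8.06 ± 3.51 RPM and in 2-file samples 9.32 ± 3.53 RPM (SD, n = 4 each), while the plus-strand sums were 22671 ± 6980.4 and 6047 ± 1724 RPM. Most of these sums rest on 3 to 13 reads per sample, and single genes could move within them. For mt-Te the 2-file striatal samples had 7, 6, 2 and 3 reads (NT 1, NT 2, R6/2 2 and R6/2 3). The 1-file samples had 1, 0, 0 and 0. A fit without the filter on low counts (edgeR's quasi-likelihood test) had the term for files and so set 1-file striatum against cortex. There mt-Te was lower in striatum, at -3.27 ± 1.03 in NT (SE, adjusted p = 0.0178) and -3.39 ± 1.17 in R6/2 (SE, adjusted p = 0.0433). No other minus-strand gene was called there, and of 24035 genes 2725 (NT) and 2190 (R6/2) were called in either direction. Of 15 mt-Te reads in NT cortex 12 were from NT 3. In 2-file striatum mt-Te had 7.63 and 4.01 RPM in NT and 1.94 and 2.85 in R6/2. These lie within the cortical ranges, 0 to 47.5 RPM in NT and 1.24 to 7.96 in R6/2. As a share of mitochondrial reads, minus-strand genes made up 0.0187% to 0.0736% in 1-file striatal samples, 0.0951% to 0.236% in 2-file striatal samples and 0.106% to 0.366% in 7 of 8 cortical samples.

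The exception, cortex NT 3, had 24 minus-strand reads among 672 mitochondrial reads, a share of 3.57% (Wilson 95% interval 2.41% to 5.26%). These were 12 reads of mt-Te, 7 of mt-Ts1 and 5 of mt-Nd6. Of the 10 reads of mt-Ts1 in the series 7 were in this sample, and it was also the one with the fewest reads in all. Without it, minus-strand genes in NT cortex summed to 10.8 ± 4.93 RPM (SD, n = 3), close to the 10.9 ± 4.19 of R6/2 cortex (SD, n = 4).

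**Figure D5:**
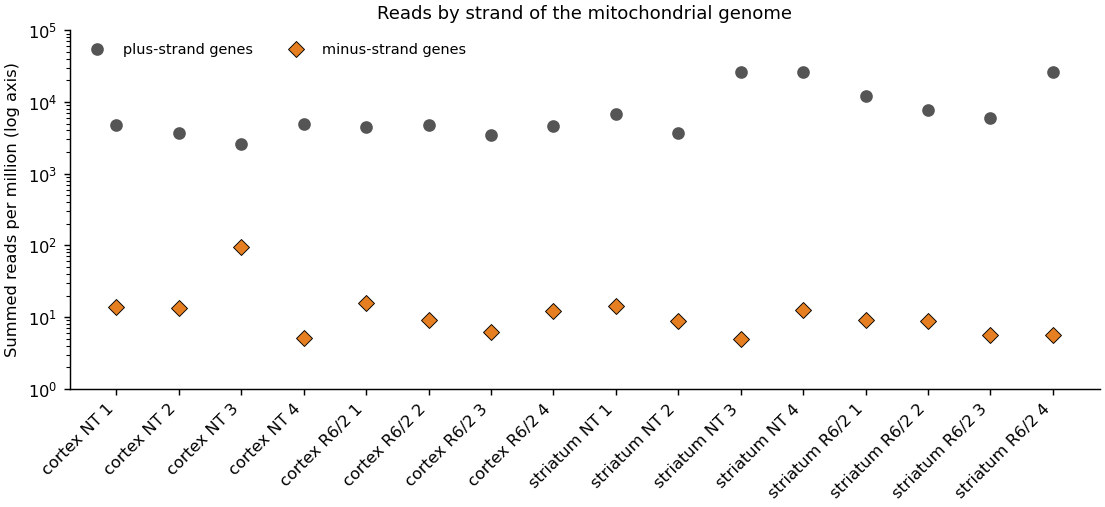
Summed RPM on a log axis for the mitochondrial genes of the plus strand (circles) and of the minus strand (diamonds) in each of the 16 samples. The circles range from 2562 to 26337 and the diamonds from 4.93 to 15.9 apart from cortex NT 3 at 94.9.

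Most tRNA genes were below the filter, and single values are therefore given as reads. The plus-strand tRNAs mt-Th, mt-Ti and mt-Ts2 followed the other plus-strand genes. In 1-file striatal samples mt-Th had 8, 10, 6 and 11 reads (NT 3, NT 4, R6/2 1 and R6/2 4), and in 2-file samples it had 0, 1, 3 and 1. The plus-strand tRNA genes mt-Tt and mt-Tw did not. For mt-Tw there were 2, 1, 5 and 0 reads in the 2-file samples (NT 1, NT 2, R6/2 2 and R6/2 3) and 0 in the 4 samples with 1 file. For mt-Tt there were 10, 22, 10 and 11 reads in the 2-file samples (NT 1, NT 2, R6/2 2 and R6/2 3) and 2, 3, 3 and 1 in the 1-file samples. In a fit without the filter on low counts, the mt-Tt log2 difference of 2-file against 1-file samples was 1.49 ± 0.49 (SE, adjusted p = 0.0220 by edgeR's quasi-likelihood test), and mt-Th and mt-Ti were lower at -3.70 ± 0.56 and -3.52 ± 0.58. In the cortex mt-Tt had 3, 1, 0 and 1 reads in NT and 8, 6, 8 and 5 in R6/2 samples. Its log2 difference of 1.90 ± 0.66 was not called (SE, adjusted p = 0.144 in the same kind of fit). That fit called 1 member in the cortex, mt-Ts1, at -4.56 ± 1.30 (SE, adjusted p = 0.0336), which rests on the 7 reads of NT 3.

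The nuclear partners of these genes were counted from lists of subunits. All 71 nuclear subunits of complexes I, III, IV and V on the lists were tested. In the cortex 39 of 7011 genes tested were called higher in R6/2, and the median log2 difference over all genes was 0.02. The 71 subunits had a median of 0.26 there, and 2 of them were called higher and none lower. Those were Ndufa3, an accessory subunit of complex I, at 94.1 ± 15.2 RPM in NT and 176 ± 22.0 in R6/2 (SD, n = 4 each), with a log2 difference of 0.86 ± 0.18 (SE, adjusted p = 0.00615), and Uqcrb, a subunit of complex III, at 111 ± 25.2 and 204 ± 30.7 RPM, with 0.87 ± 0.19 (SE, adjusted p = 0.0103). In the striatum none of the 71 was called, with a median of -0.03. Between 2-file and 1-file striatum 58 were lower and 3 higher (median -1.59), and between striatum and cortex 56 were higher and 4 lower in NT (median 1.35) and 53 higher and 2 lower in R6/2 (median 1.02). Over all genes tested, 18.3% were called lower in 2-file samples, and 17.2% (NT) and 14.3% (R6/2) higher in the striatum. Of all nuclear genes with models of 500 to 1000 bases, 88.8% were called lower in 2-file samples, and the 71 subunits were not matched for length. These comparisons share samples with those of the mitochondrial genes, and the values stand side by side without a test of one against the other.

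Set against these subunits, mitochondrial mRNAs had few reads. RNA was first treated with a 5′-phosphate-dependent exonuclease, and reads needed a poly(A) tail. The ratios are therefore of counted reads and not of RNA in the tissue. For every 100 reads of the 71 nuclear subunits there were 3.49 to 5.14 reads of the 13 mitochondrial mRNAs in NT cortex, 3.37 to 4.07 in R6/2 cortex, 5.85 to 14.1 in NT striatum and 7.72 to 14.9 in R6/2 striatum. All 8 striatal samples were above all 8 cortical samples. By number of files the ratio was 8.19 ± 1.75 in 2-file and 12.7 ± 3.33 in 1-file striatal samples (SD, n = 4 each), and these overlapped through R6/2 1, a 1-file sample at 7.72. The mean of NT was 10.6 ± 4.09 and that of R6/2 10.2 ± 3.28 in the striatum, and 4.06 ± 0.752 and 3.73 ± 0.338 in the cortex (SD, n = 4 each).

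Nuclear genes that act on mitochondrial DNA and RNA had few reads. Mitochondrial RNA polymerase, Polrmt, had 17.4 ± 6.04 RPM in NT and 8.40 ± 2.19 in R6/2 cortex and was below the filter there, and in the striatum it had 15.0 ± 1.97 and 14.2 ± 2.78 (SD, n = 4 each). Tfam, which packages mitochondrial DNA and starts its transcription, had log2 differences of R6/2 against NT of -0.29 ± 0.28 in cortex and -0.22 ± 0.23 in striatum (SE, adjusted p = 0.644 and 0.656). Ppargc1a, a coactivator of mitochondrial biogenesis, was below the filter in the cortex, with 14.7 ± 6.91 RPM in NT and 12.9 ± 6.57 in R6/2 (SD, n = 4 each), and had -0.18 ± 0.28 in the striatum (SE, adjusted p = 0.872). Lrpprc, which stabilises mitochondrial mRNAs, had -0.42 ± 0.21 in cortex and 0.02 ± 0.21 in striatum (SE, adjusted p = 0.305 and 0.981). Of 14 genes of mitochondrial DNA transcription and replication, 5 were tested in cortex and 11 in striatum, of 19 genes of mitochondrial RNA processing 14 and 17, and of 5 nuclear regulators 1 and 5, and none was called in either region. Of 81 mitochondrial ribosomal proteins, 76 were tested in the cortex, where Mrpl21 was higher in R6/2 (0.90 ± 0.25 on the log2 scale, SE, adjusted p = 0.0464), and 79 in the striatum, where none was called.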

How the data were processed

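Iso-seq was performed on 16 samples from mouse cortex and striatum, 4 per genotype and region. Per the labels, RNA was first treated with a 5′-phosphate-dependent exonuclease, which degrades RNA with a 5′ monophosphate, so a share of reads here is not the share of that RNA in the tissue. The authors kept full-length consensus reads that ended in poly(A), mapped these to the mm10 assembly (minimap2 2.17-r941 in the submitters' processing notes) and assigned them with TALON. The deposited values are counts of reads per transcript model, unfiltered and not normalized.

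Counts of the 2 files of 4 striatal samples were summed. Gene counts are sums over all models of a known gene, the genomic class included. Reads without molecular identifiers are not independent molecules, so intervals cover counting error alone. Tests were edgeR 4.0.16 (R 4.3.3, with TMM, filterByExpr, glmQLFit and glmQLFTest), adjusted over all genes with a threshold of 0.05, and DESeq2 1.42.0 was an alternative. The SE is the log2 difference divided by the root of F, left out for differences under 0.01. The paper gives the samples as male mice of a larger cohort, 4 per condition. Sums over members were not tested. On simulated counts, 3.90% to 9.70% of calls were of unchanged genes. Samples of a group differed beyond sampling noise (chi-square per degree of freedom of 2.72 to 24.4), as did the 2 files of a sample (2.34 to 3.04). Positions and sequences come from GENCODE M21 (GRCm38, the assembly also called mm10).

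Every mt- gene was accounted for. Those with at least 10 reads were described singly, and the 3 with the most reads in every sample. Named nuclear genes were those called in R6/2 against NT on the lists and 4 fixed ones (Ppargc1a, Tfam, Polrmt and Lrpprc). Members, lists and tests were chosen with earlier results of these data known.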

Additional observations from a re-analysis of the deposited data

Results flagged for a closer look

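In groups of 4 samples, a sample was looked at again when its gap to the nearest other sample was too large a part of the group's range (above the 95% critical value of Dixon's test). Of 72 groups and measures checked, 5 met this, and chance alone gives about 1 in 20. In NT cortex, NT 3 had 3.57% of its mitochondrial reads from minus-strand genes against 0.106% to 0.366% in the other 3 samples. Also in NT cortex, mt-Atp6 was at 84.2 RPM in NT 4 against 47.8 to 51.4 in the others, mt-Nd2 at 214 RPM in NT 1 against 166 to 172, and mt-Nd3 at 11.5 RPM in NT 2 (6 reads) against 3.44 to 4.66. In R6/2 striatum, mt-Co1 was at 1744 RPM in R6/2 4, a 1-file sample, against 958 to 1047 in the others, which had 1 or 2 files. No member had R6/2 responses in cortex and striatum that differed by the interaction test or that had opposite directions without overlap.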

How the results depend on the processing

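No member was called between genotypes in the striatum or in the interaction under any alternative run, and in the cortex 1 was (mt-Ts1) without the filter on low counts and none otherwise. Differences of the mitochondrial share between genotypes changed sign with the samples left out, from -0.00588 to 0.0682 percentage points in the cortex and from -0.711 to 0.0806 in the striatum. The share in NT striatum exceeded that in NT cortex by 0.298 percentage points with protein-coding genes alone, by 2.22 with 1-file and by 0.130 with 2-file striatal samples, against 1.18 in the report's setting. The difference by number of files, -1.66 percentage points, was -0.368 with protein-coding genes alone. Members called by number of files fell from 15 to 7 with the replicate block, as calls over all 8718 genes fell from 2636 to 729, and 14 were called by DESeq2, which lost mt-Nd5. The block uses the sample number of the labels, which does not pair the samples: deviations of same-numbered NT and R6/2 samples correlated from -0.52 to 0.59 in the striatum and from -0.06 to 0.15 in the cortex. The block left other counts of members as they were. Members higher in the striatum numbered 6 in R6/2 without a term for files and 5 in NT with 2-file samples alone, where mt-Rnr1 changed sign to -0.0493. The causes were not tested. Leaving out single samples gave 14 to 16 members called by number of files, 12 to 15 for region in NT and 13 or 14 in R6/2. Members with few reads, most tRNAs and mt-Nd6, are limited by depth.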
